A study of Homo sapiens with 3 samples.

Results

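The accessible regions of chromosome 21 were taken from 1 list of open chromatin in human neurons. They are all the distinct intervals of the list that lie on that chromosome, and they number 652 of 65234 regions. Of these, 607 lie on the long arm and 45 on the short arm. The neurons were made from KOLF2.1J, an established induced pluripotent stem cell line, in a derivative that carries hNGN2, the human neurogenin 2 factor that turns such cells into neurons. The cells were harvested at day 14 of differentiation for ATAC-seq, an assay in which the Tn5 transposase cuts and tags accessible DNA. All 3 biological replicates belong to a single group, of a single cell line, and the list combines them. No value per replicate was analysed here, which leaves the spread between replicates unknown, and each comparison is between places in the genome.

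Chromosome 21 is the smallest human autosome and one of the acrocentric ones, whose short arms carry ribosomal RNA genes and repeated DNA. An extra copy of it causes Down syndrome, in which the gene for the amyloid precursor protein, the kinase gene DYRK1A and others have been studied in the brain. Accessible DNA is found mainly at active gene starts, which are often rich in CpG dinucleotides, and at distal elements such as enhancers.

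The promoter sequences of 6 long-arm genes are printed as picked examples of starts that were accessible and starts that were not. Each stretch is the 150 bases before the annotated start, read 5′ to 3′ on the gene's strand, from RefSeq (GRCh38.p14). Capitals mark 4 words on either strand, namely GGGCGG (the core of the GC box), the CCAAT box, the ETS family word CCGGAAG, and TGACG, found in CREB family sites. The first 4 starts had a region summit within 100 bp. Those of LIPI and CLDN17 had none within 5 kb.
ATP5PO, chr21:33915805-33915954, minus strand: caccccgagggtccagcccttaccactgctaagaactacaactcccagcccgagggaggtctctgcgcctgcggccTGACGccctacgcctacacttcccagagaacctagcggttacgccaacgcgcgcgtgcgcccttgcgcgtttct
MORC3, chr21:36320047-36320196, plus strand: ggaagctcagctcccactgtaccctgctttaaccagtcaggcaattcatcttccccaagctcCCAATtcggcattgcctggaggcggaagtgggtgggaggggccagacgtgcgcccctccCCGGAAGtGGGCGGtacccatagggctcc
TIAM1, chr21:31559088-31559237, minus strand: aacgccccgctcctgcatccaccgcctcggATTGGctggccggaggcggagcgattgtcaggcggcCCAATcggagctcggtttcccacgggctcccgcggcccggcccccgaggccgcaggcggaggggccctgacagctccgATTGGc
KCNJ6, chr21:37916458-37916607, minus strand: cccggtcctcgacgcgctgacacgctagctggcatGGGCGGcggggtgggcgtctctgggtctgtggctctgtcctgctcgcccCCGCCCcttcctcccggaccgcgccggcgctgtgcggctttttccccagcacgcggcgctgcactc
LIPI, chr21:14210956-14211105, minus strand: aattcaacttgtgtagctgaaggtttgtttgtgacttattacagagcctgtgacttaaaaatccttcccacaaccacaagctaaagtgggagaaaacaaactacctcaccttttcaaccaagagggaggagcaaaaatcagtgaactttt
CLDN17, chr21:30166806-30166955, minus strand: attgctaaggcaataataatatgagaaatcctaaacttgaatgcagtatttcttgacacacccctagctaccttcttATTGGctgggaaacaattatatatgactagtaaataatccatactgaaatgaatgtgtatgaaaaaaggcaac
These stretches held 15 CpG dinucleotides for ATP5PO, 6 for MORC3, 18 for TIAM1 and 19 for KCNJ6. Those of LIPI and CLDN17 held 0. Other accessible starts differed in the 4 words over the same length. The stretches of PKNOX1, HSPA13 and USP16 held some of them, and those of APP, DSCAM and KRTAP10-10 held 0. APP had 23 CpG dinucleotides, DSCAM 12 and KRTAP10-10 2.

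Other sequences are shown because the assembly holds them on both arms. Chromosome 21 of GRCh38 carries annotated copies of several long-arm genes on its short arm, under LOC symbols, and their starts are nearly the same letter for letter. The stretches below are the 160 bases before the aligned starts, from RefSeq (GRCh38.p14). Capitals mark the bases at which the GATD3 stretches differ. The SIK1 and ICOSLG stretches are printed once because both arms hold the same letters.
GATD3, long arm, chr21:44133523-44133682, plus strand: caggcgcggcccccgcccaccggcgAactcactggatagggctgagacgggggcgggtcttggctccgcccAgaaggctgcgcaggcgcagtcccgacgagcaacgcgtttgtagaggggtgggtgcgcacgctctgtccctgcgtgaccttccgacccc
LOC102724023, short arm, chr21:5128370-5128529, minus strand: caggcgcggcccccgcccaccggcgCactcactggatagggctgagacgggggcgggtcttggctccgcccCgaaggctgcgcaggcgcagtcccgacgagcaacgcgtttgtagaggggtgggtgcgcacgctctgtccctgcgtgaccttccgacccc
SIK1, chr21:43427132-43427291, minus strand, the same as LOC102724428, chr21:6110971-6111130, plus strand: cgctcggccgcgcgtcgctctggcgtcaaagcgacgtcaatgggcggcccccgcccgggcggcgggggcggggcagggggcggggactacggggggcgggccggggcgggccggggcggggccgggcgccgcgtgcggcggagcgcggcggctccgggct
ICOSLG, chr21:44240967-44241126, minus strand, the same as LOC102723996, chr21:5022371-5022530, plus strand: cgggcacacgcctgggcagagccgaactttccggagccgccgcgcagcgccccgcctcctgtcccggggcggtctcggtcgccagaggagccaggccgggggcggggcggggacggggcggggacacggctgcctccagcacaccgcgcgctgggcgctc
With positions counted from 1 at the 5′ end and the long-arm base first, the GATD3 stretches differ at A26C and A72C.

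A region is described here by its width, its number of summits, its tags and its fold enrichment. Tags are the number of sequencing tags piled up at the strongest summit, recovered from the deposited values, and fold enrichment is the tag level at that summit over the mean of the surrounding 10 kb. The fold and the p-value behind these are the authors' own values per peak. The chromosome 21 regions were 171 to 2880 bp wide, with a median of 853.5 bp. Their summits held 86 to 3131 tags, with a median of 222, and the fold enrichment ran from 1.69 to 18.4, with a median of 5.63. Across the whole list the summits held 58 to 3783 tags with a median of 189 over all summit entries.

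The labelled cell type was set beside marker genes by whether a summit lay within 1 kb of either outer end of the gene, called an accessible end below. Of 10 neuronal markers, 7 had an accessible end, and ELAVL4, RBFOX3 and TUBB3 did not, beside a background of 67.9% of all autosomal coding genes. All 5 progenitor markers had one, as did 1 of 5 pluripotency markers, DNMT3B, and 2 of 5 glial markers. Annotated starts, where given, were accessible for 6 of 7 neuronal, 5 of 5 progenitor, 2 of 4 pluripotency and 2 of 2 glial markers, beside a background of 71.8%. The neuronal share is near the background, and an accessible end is not a measure of expression, so these counts do not settle the makeup of the cultures.

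Chromosome 21 had fewer accessible regions for its length than any other autosome. It held 16.3 regions per Mb of gene-bearing or region-bearing DNA, against 23.8 ± 3.52 (mean ± SD over the 21 other autosomes), of which chromosome 4 was the lowest at 19.4 and chromosome 19 the highest at 34.4. Both distal regions, those with no gene end within 1 kb, and regions at gene ends were fewer per Mb. Chromosome 21 had 11.95 distal regions per Mb against 17.2 ± 1.10, and the lowest of the others, chromosome 16, had 15.5. With the short arm left out, the long arm alone had 13.1 distal regions per Mb, still below all 21 other autosomes. Regions at gene ends numbered 4.35 per Mb against 6.58 ± 3.12, and 3 other autosomes were lower, chromosomes 4, 13 and 18, which have fewer coding genes per Mb. Over the 22 autosomes, region density went with the density of protein-coding genes (Pearson r = 0.89, n = 22 chromosomes of the same pooled libraries). Chromosome 21 had 5.95 coding genes per Mb and 8 autosomes had fewer, yet each of those 8 had more regions per Mb.

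**Figure D1:**
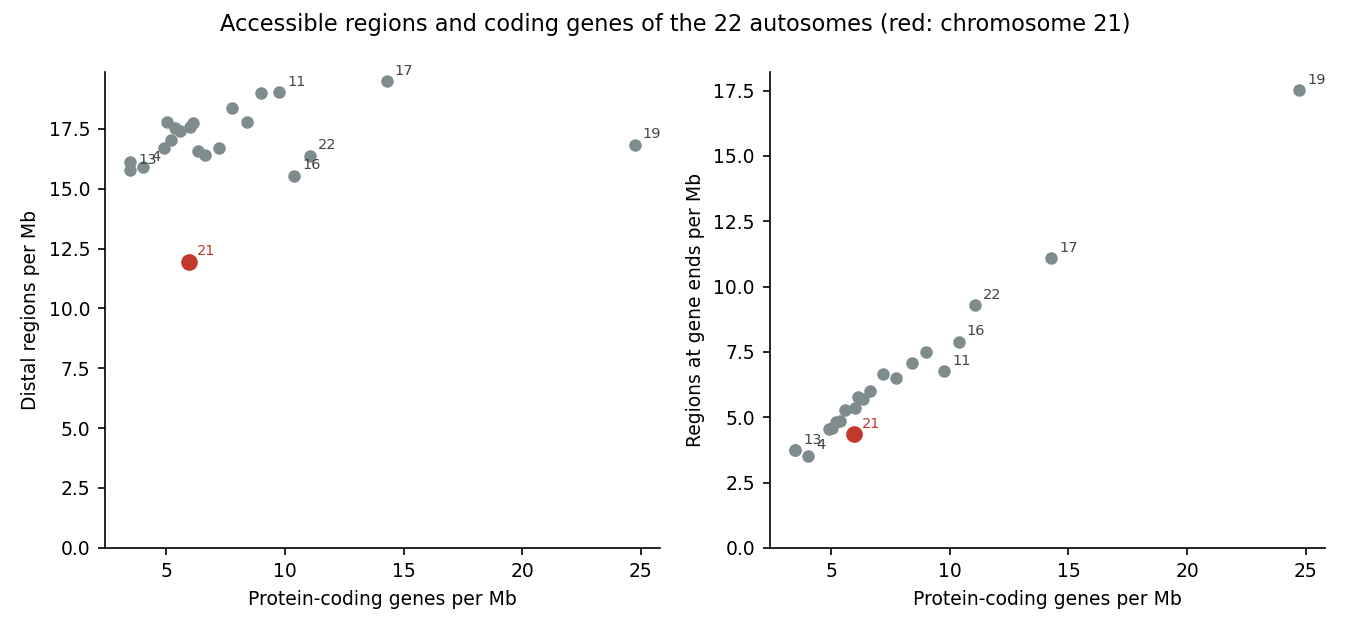
Distal regions per Mb (left) and regions at gene ends per Mb (right) against protein-coding genes per Mb, with 1 point per autosome and some chromosome numbers beside the points. Chromosome 21, in red, lies below all others on the left, at 11.95 distal regions per Mb, and on the right, at 4.35, below the chromosomes of like gene density, such as chromosome 7 at 5.36 and chromosome 10 at 5.28 (points without a number).

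Where regions lay relative to genes differed little from the other autosomes. Of the 652 regions, 174 (26.7%, Wilson 95% interval 23.4 to 30.2) had their strongest summit within 1 kb of a gene end, beside a background of 25.6% over all autosomal regions. The mean of the other autosomes was 26.7 ± 7.61%. The median distance from summit to the nearest gene end was 6204.5 bp, against 8180 ± 3416 bp, and to the nearest coding gene end 31989.5 bp, against 28429 ± 14852 bp. A distance over 100 kb from any coding end was found for 184 regions (28.2%, against 24.1 ± 8.51%). All of these differences were smaller than the SD over the other autosomes.

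By place, 121 regions were at the end of a coding gene, 53 at the end of a non-coding gene, 195 inside a coding gene, 84 inside a non-coding gene and 199 between genes. Those at coding ends were the strongest and widest, with a median of 788 tags, a fold enrichment of 9.95 and a width of 1284 bp. The other 4 classes had median folds between 5.01 and 5.34 and median widths between 762 and 791 bp. Regions at coding ends of chromosome 21 had a tag level within the SD of the other autosomes (853 ± 67.4). Over all gene ends the median was 498.5 tags, below each of the other 21 autosomes (665.5 ± 62.2). Non-coding ends, at 219 tags, were second lowest of 22 (280 ± 40.9 on the others).

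In summit number chromosome 21 ranked highest in the shares at both ends. Single summits made up 241 regions (36.96%, beside a background of 33.7%), the highest share of any autosome, against 33.6 ± 1.18%. Regions with 5 or more summits numbered 46 (7.06%), also the highest share, against 5.48 ± 0.52%. Chromosome 21 had the fewest regions of any autosome, 652 against 1026 or more, and the SD over larger chromosomes does not measure its counting error. No interval was computed for these shares, so whether the ranks exceed that error is not known. The mean number of summits, 2.19, had 3 autosomes lower (2.22 ± 0.029). On the long arm alone the share with 5 or more, 6.43%, was still above the other 21, while the single-summit share, 35.9%, was below that of chromosome 20. Of the 46 regions with many summits, 31 were at a gene end, beside 26.7% of all chromosome 21 regions and 25.6% of all autosomal regions. This count was not made for the other autosomes. The score was at its maximum of 1000 in 73.2% of regions, beside a background of 73.7%.

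**Figure D2:**
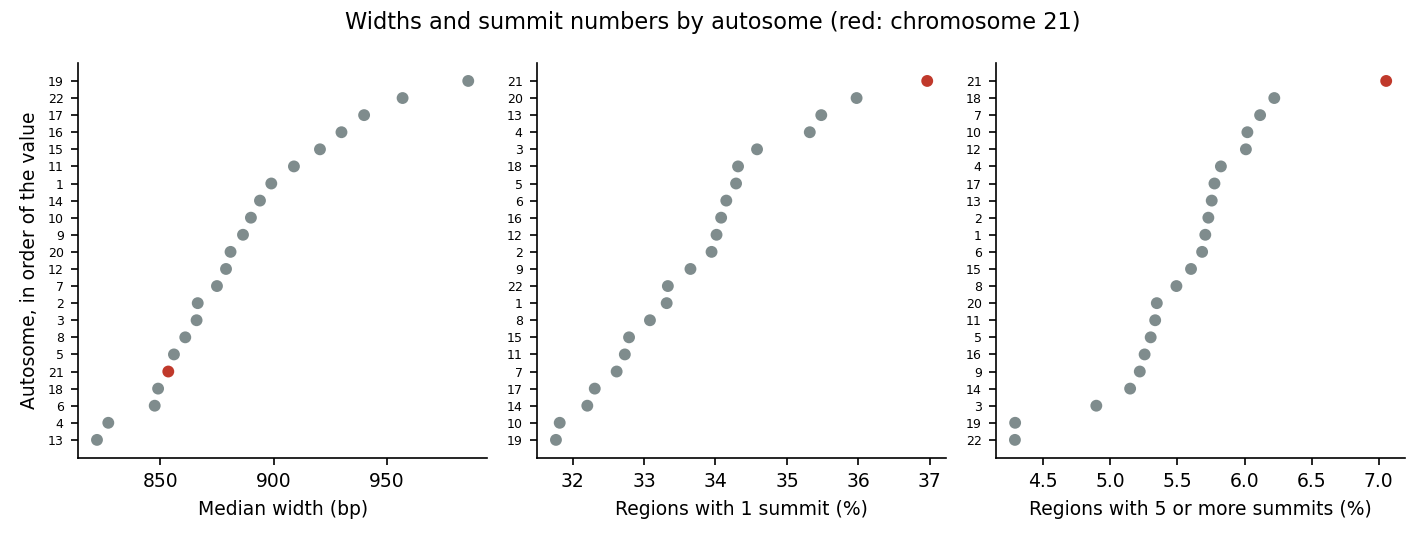
Median region width in bp (left), share of regions with 1 summit (middle) and share with 5 or more summits (right), with 1 point per autosome in order of the value. Chromosome 21, in red, has 4 autosomes below it in width, at 853.5 bp, and is the highest in both shares, at 36.96% and 7.06%. The axes do not start at 0. Counting intervals for the shares were not computed.

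The widest region, chr21:9246080-9248959 on the short arm, spanned 2880 bp with 9 summits and lay 78.3 kb from the nearest gene end. The next widest, of 2715 bp with 8 summits, was at ADAMTS1, which encodes a secreted metalloproteinase. That of SCAF4, an RNA processing factor, followed with 2308 bp and 7 summits. APP, the gene for the amyloid precursor protein, had a region of 8 summits at its start (chr21:26169094-26171227, 1071 tags, fold 7.65). The regions of ZBTB21, a zinc finger factor, and LSS, the lanosterol synthase of cholesterol synthesis, had 7 summits each.

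The highest fold enrichment was not at a gene end. Region chr21:29002406-29003188 reached 18.4-fold with 1215 tags, and its summit lay 1576 bp from RWDD2B. ATP5PO, a subunit of mitochondrial ATP synthase whose start is printed above, followed at 17.6-fold with 1603 tags. DNAJC28 came next at 17.2-fold. A distal region inside DYRK1A, chr21:37434913-37436223, reached 17.1-fold with 826 tags, 69.7 kb from an end of that gene. The remaining 6 of the 10 highest were at the ends of LOC102724023, MORC3 (16.9-fold, 2081 tags), HEMK2, GET1, DIP2A and USP16, so 8 of the 10 were at gene ends. MORC3 encodes a nuclear chromatin-binding ATPase and USP16 a histone H2A deubiquitinase.

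Tag numbers ranked other regions first. The start of TIAM1, a Rac exchange factor active in neurite growth and dendritic spines, held the most tags on the chromosome, 3131 (exact Poisson 95% interval 3022 to 3243, counting error only). HSPA13, an HSP70 family member, held 2703. The region shared by ITSN1, an endocytic scaffold, and CRYZL1 held 2594. VPS26C, a part of the endosomal retriever complex, held 2584. ATP5PF, another ATP synthase subunit, and GABPA, an ETS family transcription factor, share a region with 2240. None of these 5 was among the 10 of highest fold. Their recovered background was 180 to 279 tags, beside a chromosome median of 37.9. It may include the tags of the region itself, so whether the neighbouring DNA was high was not tested.

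Regions were unevenly spread along the long arm. Its 34 bins of 1 Mb above 13 Mb held 0 to 35 regions, with a mean of 17.9 ± 9.33 (SD over bins). Split at 31 Mb, the centromeric side had 225 regions in 18 bins, or 12.5 per Mb, and the telomeric side 382 in 16 bins, or 23.9 per Mb. The telomeric side also held 155 of the 219 coding genes. On the centromeric side 18.7% of regions were at a gene end and the median distance to a coding end was 92.3 kb. On the telomeric side these values were 31.4% and 14.5 kb. Regions were also narrower on the centromeric side, with a median of 768 bp against 922.5 bp, while the median fold enrichment was similar at 5.49 and 5.69.

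**Figure D3:**
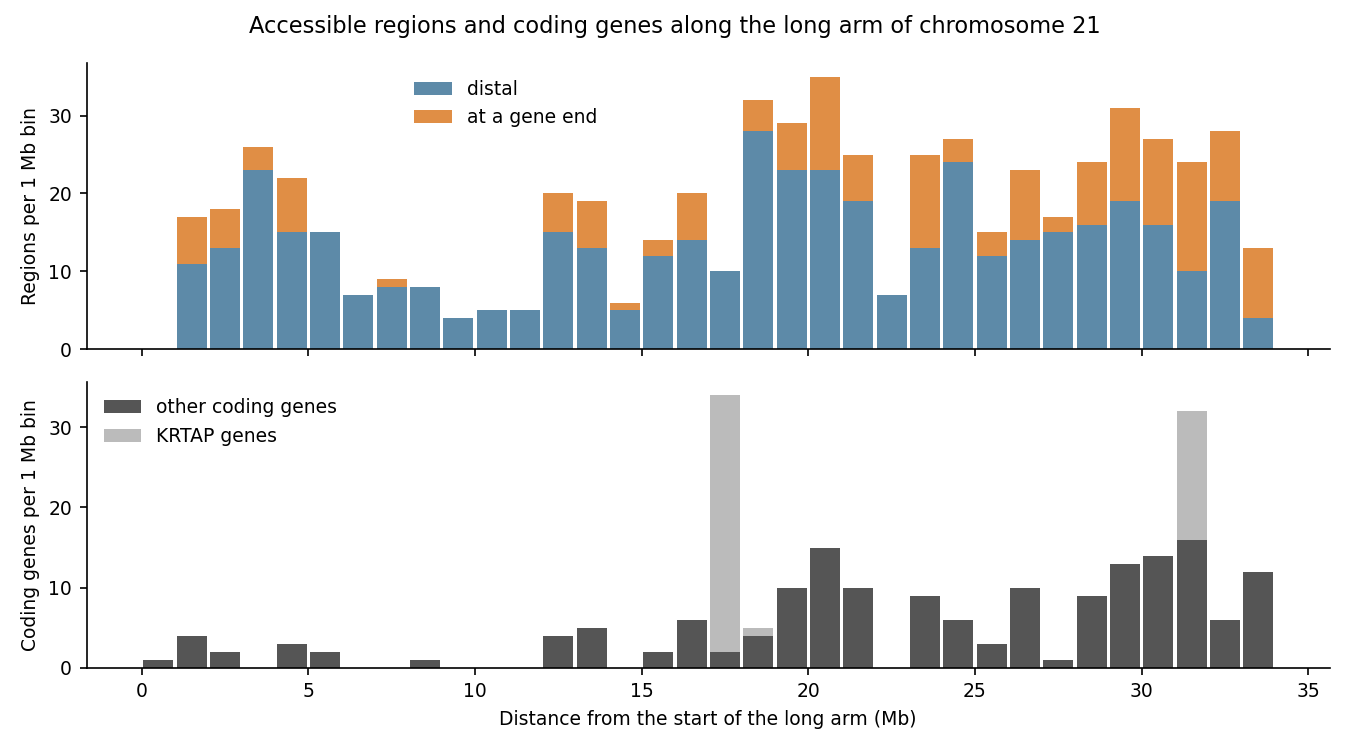
Regions per 1 Mb bin, split into distal and gene-end regions (top), and protein-coding genes with their midpoint in each bin, with keratin-associated genes in light grey (bottom), by distance from the start of the long arm in Mb. Most bins with 4 to 9 regions and almost no coding gene lie in the first part of the arm, another with 7 regions lies about 22 Mb into it, and the bin with 34 coding genes, nearly all keratin-associated, holds 10 regions.

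The densest bin, 33 to 34 Mb, held 35 regions and 15 coding genes, among them OLIG1, OLIG2, IFNAR1 and SON. The bins 31 to 32 Mb and 42 to 43 Mb followed with 32 and 31. The bin 13 to 14 Mb was empty. Dense regions did not always go with coding genes. The bin 16 to 17 Mb held 26 regions and no coding gene, and 21 of its regions lay inside MIR99AHG, a host gene of microRNAs. The reverse held for the bin 30 to 31 Mb, whose 34 coding genes are mostly keratin-associated and which held 10 regions, 0 of them at a gene end.

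The 3 longest stretches without a region were chr21:22804620-23487740 (683 kb), chr21:20020354-20661278 (641 kb) and chr21:24046271-24636933 (591 kb). None of these held a coding gene. The next longest, chr21:21365889-21906910 (541 kb), began inside NCAM2, which encodes a neural cell adhesion molecule. The median gap between neighbouring long-arm regions was 30.9 kb.

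Set beside bins of like gene number on the other autosomes, the long arm was lower in 2 classes. Its 6 bins with 1 or 2 coding genes had a mean of 12 regions against 17.4 ± 1.77 (SD over the 21 autosomes), and its 6 bins with 11 or more had 23.3 against 32.3 ± 3.68. Both were below all 21 other autosomes. With keratin-associated and olfactory receptor genes left out of the gene count, the latter became 26 in 5 bins against 32.6 ± 3.80, with 2 autosomes lower. Bins with 0 genes (8.63 against 9.93 ± 1.95), 3 to 5 genes (20.8 against 22.6 ± 3.63) and 6 to 10 genes (25.1 against 26.1 ± 2.41) lay within the SD. The bins per class are few and are neighbours on 1 chromosome. The class of 1 or 2 genes includes the empty bin 13 to 14 Mb, and that of 11 or more the last bin, 46 to 47 Mb. That last bin held 13 regions, and the genes and regions of the chromosome end at 46.7 Mb. No mean was computed without these bins, so the ranks may rest on them.

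Of the 238 coding genes of chromosome 21, 128 (53.8%, Wilson 95% interval 47.4 to 60.01) had an accessible end, beside a background of 67.9% over all autosomal coding genes. This was the lowest share of any autosome (69.0 ± 3.86% on the others, lowest 59.2% on chromosome 11). Annotated starts, available for 183 of the genes, were accessible for 102 (55.7%), beside a background of 71.8%. The keratin-associated proteins (KRTAP), which build the hair shaft, are a large family on this chromosome, and 1 of their 49 genes had an accessible end, KRTAP10-10 with 130 tags. Without keratin-associated and olfactory receptor genes the share was 67.2%, against 70.2 ± 3.06% computed alike on the others, and 4 autosomes were lower.

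**Figure D4:**
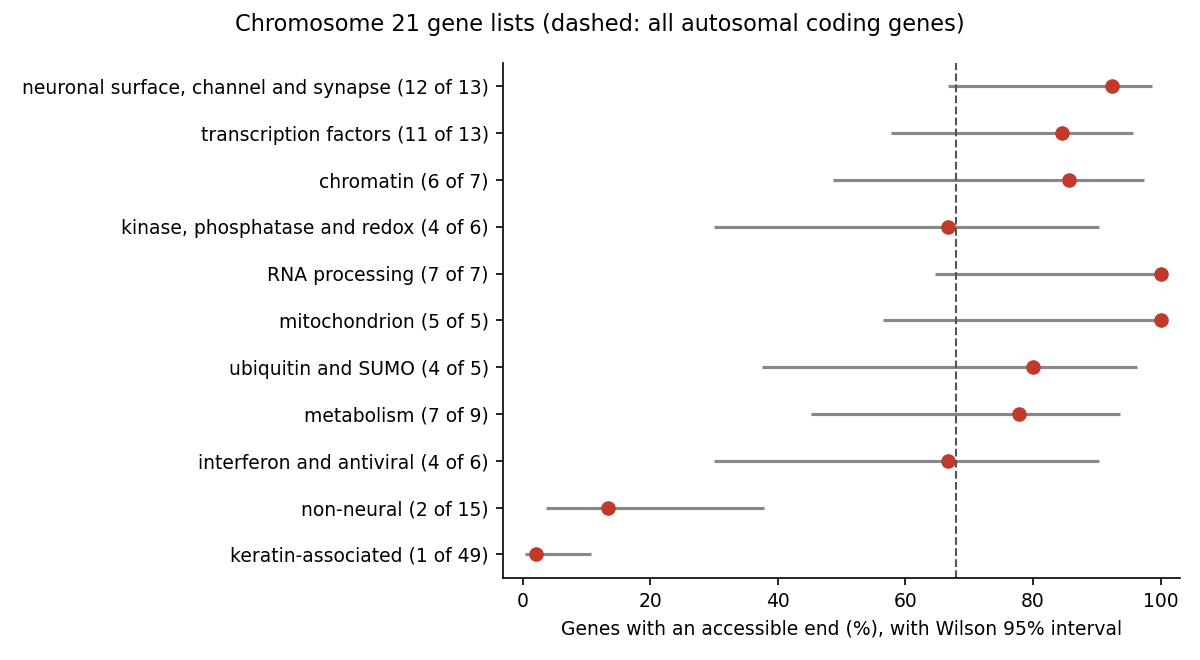
Share of genes with an accessible end for 11 chromosome 21 gene lists, with the count in the label, Wilson 95% intervals as bars, and the 67.9% of all autosomal coding genes as a dashed line. The non-neural list (2 of 15) and the keratin-associated list (1 of 49) lie to the left of the line with their whole intervals.

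Among 13 neuronal surface, channel and synapse genes, 12 had an accessible end (Wilson interval 66.7 to 98.6%), beside a background of 67.9%. That interval includes the background. The median over these 12 was 628.5 tags, beside 936 over the 128 coding genes with an accessible end. The 12 include S100B (463 tags), which was also counted above as a glial marker. Its region lay 0.114 kb from its lower-coordinate end, and no annotated start was given for it. Annotated starts, given for 8 of the 13, were accessible for 6, beside a background of 71.8%. TIAM1 (3131 tags), ITSN1 (2594), SYNJ1, a phosphatase of synaptic vesicle recycling (1598), and CXADR, a junctional adhesion molecule (1388), had the most. KCNJ6, a G protein-gated potassium channel, had 726, and GRIK1, a kainate receptor subunit, 531. NCAM2 had 528, and DSCAM, an adhesion molecule of neurite self-avoidance, 330. PCP4, a calmodulin regulator, had the fewest at 184. The cation channel gene TRPM2 had its nearest summit 10.8 kb from an end and 0 inside.

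Long genes of the chromosome differed in how many regions they held inside. DSCAM, 836 kb long, held 15, TIAM1 held 12, and CHODL and KCNJ6 held 10 each. APP held 9, GRIK1 8 and NCAM2 6. Beside autosomal coding genes of similar length, KCNJ6 lay at percentile 70.9 and APP at 68.5. DSCAM lay at 41.2 and NCAM2, 545 kb long, at 13.7, where genes of like length held a median of 11. The strongest distal region of KCNJ6, 98.1 kb inside its start, had 715 tags and a fold enrichment of 12.9, close to the 726 tags at the start itself. The 8 distal regions of APP were weaker, at 111 to 208 tags, against 1071 at its start.

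Transcription factor genes had an accessible end in 11 of 13 cases. PKNOX1, a homeobox factor, held 2139 tags, ZBTB21 1706, NRIP1, a nuclear receptor corepressor, 1535, and BACH1, a repressor of oxidative stress genes, 796. OLIG1 and OLIG2, best known from the oligodendrocyte lineage, held 439 and 467 tags, and each had 5 distal regions within 50 kb, of which 3 were the same for both genes, so that there were 7 in all. The outer ends of ERG and RUNX1, known from endothelium and blood, had none. RUNX1 did have a region of 1026 tags 100 bp from an annotated start inside the gene. AIRE, of thymic epithelium, counted through its downstream end (254 tags), and the summit nearest to its start was 11952 bp away.

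Chromatin genes had an accessible end in 6 of 7 cases, beside a background of 67.9%. MORC3 held 2081 tags, SETD4 1391 and HMGN1, a nucleosome-binding protein, 1167. BRWD1, a bromodomain protein, counted through a region of 1626 tags shared with PSMG1. The summit of that region lay 0.651 kb from the end of BRWD1 and 0.011 kb from that of PSMG1. An annotated start of BRWD1 had a summit at 263 bp. DNMT3L, a germline cofactor of DNA methyltransferases, had its nearest summit 35.9 kb from an end. Of 6 genes discussed in Down syndrome, listed as kinase, phosphatase and redox genes, 4 had an accessible end, beside the same background. TTC3, which encodes a ubiquitin ligase and not one of these enzymes, held 1850 tags in a region shared with PIGP. RCAN1, an inhibitor of calcineurin, held 1599, SOD1, the cytosolic superoxide dismutase, 1330 and SIK1, a salt-inducible kinase, 779. RIPK4 had no accessible end. DYRK1A missed the 1 kb window at 1.086 kb, and its annotated start had a summit of 1975 tags at 114 bp.

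All 7 RNA processing genes and all 5 mitochondrial genes had an accessible end, beside a background of 67.9%. PAXBP1 held 2057 tags, SON, a splicing cofactor, 1923 and U2AF1, which recognises the 3′ splice site, 690. Of the mitochondrial genes, ATP5PF held 2240, NDUFV3, a complex I subunit, 1954, ATP5PO 1603, and the ribosomal protein genes MRPL39 and MRPS6 1105 and 819. Ubiquitin and SUMO genes had accessible ends in 4 of 5 cases, beside the same background, with USP16 at 1810 tags and SUMO3 at 443. UBASH3A, known from T cells, had none.

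Metabolic genes had an accessible end in 7 of 9 cases, beside a background of 67.9%. The purine synthesis gene GART held 1923 tags and PFKL, the liver type of phosphofructokinase, 219. FTCD, a liver enzyme of folate metabolism, had no accessible end. SLC19A1, the reduced folate carrier, had none either, but a summit lay 28 bp from its annotated start. Of the interferon and antiviral genes, 4 of 6 had an accessible end, beside the same background. The receptor gene IFNAR1 held 1952 tags, and IFNAR2, IL10RB and MX1 held 873, 254 and 173. IFNGR2 had a summit 764 bp from its annotated start, outside the window of its outer end. The summit nearest to an end of MX2 was 11.1 kb away.

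The non-neural list had 2 of 15 accessible ends, beside a background of 67.9%. COL6A1, a collagen VI chain, held 407 tags and TMPRSS2, an epithelial protease, 121, the latter at 827 bp. The trefoil factor, claudin and lens crystallin genes and the lipase gene LIPI had none, and none of the 9 genes of this list with an annotated start had it accessible. A count of 0 of 9 allows a share of up to 33.3%.

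Some regions lay at the ends of 2 annotated coding genes. There were 21 of these and 100 at the end of 1. The former had a median of 990 tags and a fold of 12.7, the latter 676.5 tags and 9.19. In 3 of the 21 a read-through gene was paired with its own part, and the other 18 had a median of 1070 tags and a fold of 12.5. The pair ADAMTS5 and LOC124905050 accounts for 2 regions. Shared regions included those of GART and SON (1923 tags), PIGP and TTC3 (1850), WDR4 and NDUFV3 (1954), and PSMG1 and BRWD1 (1626). A shared region cannot be assigned to either gene.

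The promoter windows of RefSeq (250 bases before to 50 after the start) differed in composition between accessible and other starts on the chromosome. The 134 accessible windows had a median of 32 CpG dinucleotides and 71% GC, and the 123 others 4 and 46.3%. GGGCGG, the core of the GC box bound by SP factors, was in 73.9% against 16.3%, beside 56.6% of all autosomal coding promoters. Of the 123, 44 were KRTAP starts, and without them the other windows had a median of 7 CpG and 52.7% GC, GGGCGG in 24.1% and TGCGCA in 7.59%. CCGGAAG, an ETS family word, was in 32 of 134 (23.9%) against 1 of 123, beside 12.9% of all. TGCGCA, an NRF1 half-site, was in 17.2% against 4.88% (9.68% of all), and TGACG, of CREB family sites, in 36.6% against 15.4% (27.7% of all). CCAAT was as frequent in both, at 23.1% and 23.6%, below the 34.4% of all. The E-box CANNTG, which includes CAGATG, was in 50.0% of accessible windows and 83.7% of the others (64.9% of all). CAGATG, a form bound by proneural factors, was in 6.72% and 21.95% (12.2% of all). All words were searched on both strands. CpG content and word content move together, and their separate parts were not tested.

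Starts with few CpG had a lower accessible share than the mean of the other autosomes. With 0 to 5 CpG, 2 of 73 starts were accessible (2.74%), against 16.6 ± 4.13% (SD over 20 autosomes with promoter entries). Without the KRTAP starts it was 2 of 34 (5.88%). With 6 to 15 CpG it was 9 of 46 (19.6%), against 50.3 ± 9.43%, and 8 of 40 without KRTAP. With 16 to 25 CpG, 28 of 31 were accessible (90.3%), against 85.8 ± 4.98%, and above that 95 of 107 (88.8%), against 92.2 ± 2.23%. The 257 starts belong to 183 genes, and a gene with several starts counts once for each, here and in the word counts above. No gene family was left out on the other autosomes. No interval was computed for these shares, so whether the low-CpG differences exceed counting error is not known.

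Some microRNAs of the long arm lay close to distal regions. MicroRNAs are short RNAs that pair with messenger RNAs mainly through bases 2 to 8, the seed, here in capitals, and those of the MIR99AHG cluster are known from neurons. The sequences are from RefSeq (GRCh38.p14).
hsa-let-7c-5p, chr21:16539838-16539859: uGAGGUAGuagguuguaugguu
hsa-miR-99a-5p, chr21:16539101-16539122: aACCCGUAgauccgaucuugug
hsa-miR-125b-5p, chr21:16590253-16590274: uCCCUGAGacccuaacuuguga
hsa-miR-155-5p, chr21:25573983-25574006: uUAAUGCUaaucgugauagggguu
No 2 of these share a seed. The nearest summit to let-7c-5p and miR-99a-5p was that of region chr21:16535031-16535446 (265 tags), at 4.67 and 3.93 kb. That summit was distal to gene ends but lay 0.403 kb from an annotated start inside MIR99AHG. The nearest to miR-125b-5p was chr21:16587987-16588918 (870 tags, fold 10.5), at 1.63 kb. MIR99AHG, 561 kb long, held 21 regions, and the one with most tags, chr21:16309322-16310469, had 1522 and a fold of 13.04, above the 561 tags at the gene's first start. Region chr21:25573700-25574345 (240 tags, fold 6.78) covered the mature miR-155 sequences, while the annotated start of its host MIR155HG was 6.29 kb from the nearest summit. MIR802, known from liver and pancreas, lay 212 kb from any.

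The short arm held 45 regions. Of these, 18 lay in the stretch chr21:8193868-8465396, which carries ribosomal RNA genes, and 6 pairs of them recurred at a spacing of about 183 kb, a pattern picked out after its values were seen. The tags of 5 pairs lay close together, at 279 and 276, 272 and 275, 173 and 159, 219 and 237, and 1067 and 1080, and their exact Poisson 95% intervals overlapped. The remaining pair held 366 and 153, with intervals of 329 to 405 and 130 to 179 that did not overlap. How reads that match repeated DNA were placed is not given in the sources used here. The tags of each pair, alike or not, therefore cannot be told apart from read placement. Another 14 regions lay in chr21:10270183-10466172, near the centromere. Of these, 10 had a fold below 3 (2.12 to 2.88), over a background of 68.9 to 104 tags beside the chromosome's median of 37.9. Of the 10 lowest folds on the chromosome, 8 were on the short arm.

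The near-identical starts of the 2 arms were given regions of their own. The SIK1 start held 779 tags on the long arm (95% interval 725 to 836) and its short-arm copy LOC102724428 788 (734 to 845), with 300 of 300 bases alike. SMIM11 held 565 and its copy 534, and U2AF1 690 and its copy 540. The intervals of U2AF1 and its copy did not overlap. CBS, the cystathionine beta-synthase gene, has 2 aligned starts. The region at one held 238 tags and that at the other 156 (132 to 182), while a single region of 242 tags (212 to 274) was nearest to both starts of the copy. The intervals of 156 and 242 did not overlap. The GATD3 start, 99% identical over 300 bases, differed most, with 282 tags on the long arm (250 to 317) and 1193 at LOC102724023 on the short arm (1126 to 1263), a ratio of 4.23. The ICOSLG copy LOC102723996 had a region of 140 tags, while the start of ICOSLG, which encodes an immune costimulatory ligand, had its nearest summit 56.9 kb away. Neither start of the CRYAA, C21orf140, SMIM34 and KCNE1 pairs was accessible. How reads that match both copies were placed is not given in the sources used here, so the split of tags between arms cannot be told apart from read placement in any of these pairs.

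**Figure D5:**
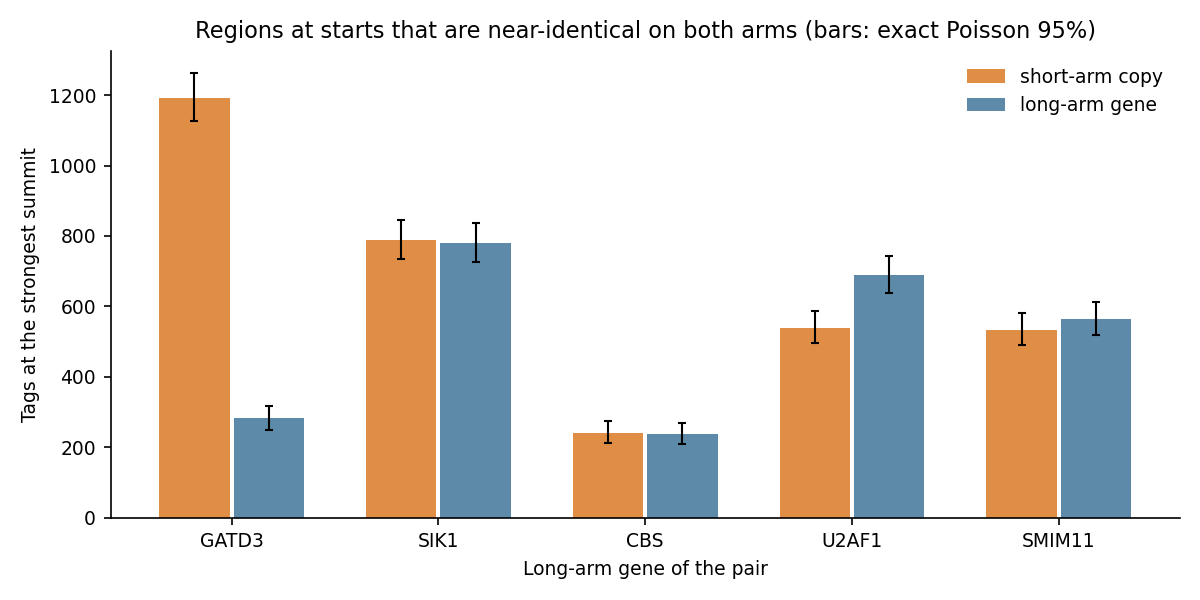
Tags at the strongest summit for 5 pairs of near-identical starts, the short-arm copy beside the long-arm gene, with exact Poisson 95% intervals as bars, which cover counting error only. SIK1, SMIM11 and the plotted CBS start (238 against 242) have overlapping intervals, the other CBS start (156 against 242) is not drawn, U2AF1 is higher on the long arm (690 against 540) and GATD3 on the short arm (1193 against 282).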

How the data were processed

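Day 14 neurons of the KOLF2.1J-hNGN2 line were profiled by ATAC-seq in 3 biological replicates, per the labels' protocols. The authors deposited 1 combined peak list, named in the labels as the optimal set by irreproducible discovery rate. Its coordinates are in hg38, per the submitters' processing notes. The aligner, peak caller and filters are not given in the sources used here. Each deposited entry holds an interval, a summit, a score, a fold enrichment as a linear ratio, and a −log10 p and −log10 q, as the authors' peak caller wrote them. The depth of each replicate is unknown.

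The 145092 entries were merged by identical interval into 65234 distinct regions, each with the values of its strongest summit. Tag counts were recovered from the ratio and the −log10 p from the upper tail of a Poisson law, with a pseudocount of 1, and every count lay within 0.011 of a whole number. The background is taken to be the mean of the surrounding 10 kb, an assumption because the peak caller is not given. Its lowest recovered value, a floor, was 29.2 tags. The code was tested on simulated data. Genes, starts and sequences came from RefSeq tables (GRCh38.p14). The start table had no chromosome 8 entries, so start comparisons used 20 other autosomes. "At a gene end" means a strongest summit within 1 kb of the outer end of any annotated gene. Density is per 1 Mb bin that holds a gene or region. Long-arm bins are those above 13 Mb.

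No test was run, since regions of 1 chromosome are not replicates. Chromosome 21 was set beside the mean and SD of the other 21 autosomes. Intervals are 95% (Wilson for shares, exact Poisson for tags) and cover counting error only. A share of 0 allows up to 3 counts of the total. The genes named are those of fixed chromosome 21 lists, the 10 regions highest in fold, the 5 highest in tags, the 3 widest, those with most summits, the genes holding most regions, the densest and emptiest bins, the longest gaps and genes with copies. The members and lists were chosen with earlier results of these data known. Alternatives were a score of at least 830, regions above the median fold, all entries, other windows, other lengths, coding genes only and the long arm only. Leaving out keratin-associated and olfactory receptor genes, and read-through genes at shared ends, was added after the data were seen. Computations used Python 3.11.15, numpy 2.4.6, scipy 1.17.1 and pandas 2.3.3.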

Additional observations from a re-analysis of the deposited data

How the results depend on the processing

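Of 43 alternative settings over 7 results, 36 moved the value by less than 1 SD over the other autosomes. The log2 ratio of region density to the other autosomes, -0.53, became -0.31 per annotated coding gene, with 5 autosomes lower, and chromosome 21 stayed lowest under the other settings. The difference in the share of coding genes with an accessible end, -15.2 percentage points, became -10.5 for regions above the median fold enrichment and -2.999 without keratin-associated and olfactory receptor genes. The difference in mean summits, -0.031, became -0.061 above the median fold. The difference in the log2 fold ratio of gene-end over distal regions, -0.14, became -0.0225 at a score of at least 830, -0.0117 above the median fold and 0.0108 with coding genes only, where its sign turned. The cause was not tested. No paired analysis was possible because there is a single group, pooled in 1 list, so leaving out a replicate could not be tried either. The depth of each replicate limits which weak regions were listed, and regions under the authors' threshold were not analysed here.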

Other observations

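Some other genes also held many regions for their length. SLC37A1, a sugar phosphate transporter of 81.8 kb, held 5, at percentile 94.0 among coding genes of similar length, whose median was 2. MIS18A, which acts at centromeres, held 5 in 124 kb (percentile 79.2), and HUNK, a kinase, held 5 in 131 kb (percentile 77.2). Among genes over 200 kb, HEMK2 held 4 in 310 kb (percentile 18.4) although its end had 1569 tags, and ERG held 4 in 295 kb (percentile 20.2). These genes were chosen after their values were seen.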
